A study of Mus musculus with 2 samples.

Results

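The 34 genes described here mark Kupffer cells, the resident macrophages of the liver, and myeloid cells more broadly. They were given by name, with earlier results of these data known, so their shared direction is no independent evidence. They were found on the array as probe sets that the platform annotation assigns to that gene symbol alone. All 34 of 34 were found, among 18194 named genes in all. Whole liver RNA was hybridised to Affymetrix mouse expression arrays, with 1 array from a control male and 1 array from a male homozygous for a targeted Tmprss6 mutation (Tmprss6-/-). Both mice were 3 months old, of mixed 129Sv/C57BL6 background, and had been fasted overnight. Whether they were littermates, and the exact genotype of the control, is not stated in the labels. Tmprss6 encodes matriptase-2, a hepatocyte membrane protease that keeps the iron hormone hepcidin low.

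Kupffer cells sit in the liver sinusoids, where they take up bacteria, dying cells, aged red cells and free hemoglobin from the blood and return the iron of degraded heme to plasma. Their identity rests on signals from sinusoidal endothelium, stellate cells and hepatocytes, and their survival on the receptor for macrophage colony-stimulating factor. Monocytes that enter the liver carry general myeloid genes first and take up resident Kupffer genes only later, so the groups are described apart. The 34 genes were divided into 8 resident Kupffer genes, 21 general macrophage and myeloid genes, 4 genes typical of monocytes and their progeny, and Id1, which other liver cells also express.

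With a single array for each genotype no replicate error could be estimated and nothing was tested, so every difference is one between 2 individual mice. The precision is limited by the number of arrays. The values are MAS5 signals, a linear fluorescence scale in which signals near background are noisy, and a probe set was called measured where its signal reached a floor of 17.8, the median of all probe sets, on at least 1 array. The only error available was how far the log2 ratios of different probe sets of 1 gene lay apart on the same arrays. That SD was 0.50 where signals lay under 64, 0.34 between 64 and 256, 0.21 between 256 and 1024 and 0.16 beyond 1024. It holds none of the variation between animals. Tmprss6 itself read 1868 in the control and 88.1 in the Tmprss6-deficient liver, 21.2-fold lower, on probes whose place relative to the mutation the labels do not state. The ratio of 3′ to 5′ signal, a measure of RNA integrity, was 0.934 and 0.878 for Gapdh and 3.33 and 2.91 for Actb in control and Tmprss6-deficient liver.

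Macrophage genes were mostly lower in the Tmprss6-deficient liver, by small amounts, and Id1 and Marco stood on the other side. Of the 34 genes, 32 were measured, 30 of them on both arrays and 2 in the control only, and 2 were below the floor on both. Ratios are Tmprss6-deficient over control throughout, on the brightest probe set of each gene. Among the measured genes, 24 had a lower signal, 7 a higher signal and 1 the same signal, so 75% were lower, against 50.4% of 12248 measured genes of the whole array, of which 49.4% were higher. The median log2 ratio was -0.30, against -0.0047 over all measured genes. At 1.5-fold or more, 6 were lower, or 18.8%, against 9.19% of all measured genes, and 2 were higher, or 6.25%, against 8.82%. The other 24 lay within 1.5-fold, several of them close to it. With the arrays scaled to their medians, 10 members were lower by that measure, against 11.1% of all measured genes. Timd4 and Aif1 were measured in the control only, so their lower direction was fixed by the floor. Of the 30 members measured on both arrays, 22 had a lower signal, against 51.1% of all genes measured on both. At 1.5-fold or more, 5 of these 30 were lower, against 8.41%. Beyond 2 probe set SDs of their signal range, 3 members were lower (9.38%, against 6.52% of all measured genes) and 2 were higher (6.25%, against 5.40%). In whole liver RNA, fewer macrophages and less of a transcript per macrophage cannot be told apart.

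**Figure D1:**
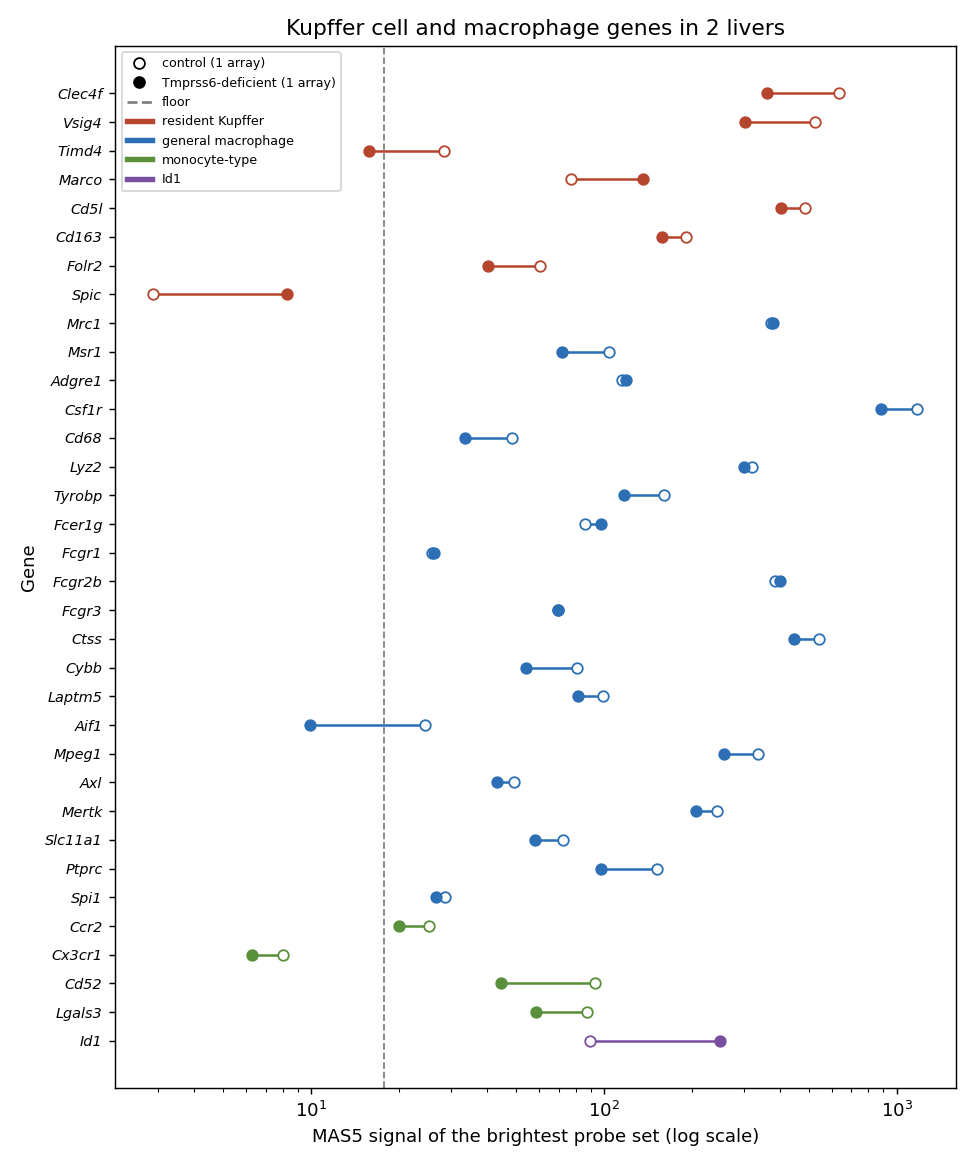
MAS5 signal of the brightest probe set of each of the 34 genes, on a log axis, in the control liver (open circles, 1 array) and the Tmprss6-deficient liver (filled circles, 1 array), coloured by gene group, with the floor of 17.8 as a dashed line. Most filled circles lie to the left of the open ones, while those of Marco and Id1 lie clearly to the right, and Spic and Cx3cr1 lie below the floor on both arrays.

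The resident Kupffer genes held the macrophage receptors with the clearest differences. Clec4f, a C-type lectin that in the mouse is restricted to Kupffer cells, read 634 in the control and 361 in the Tmprss6-deficient liver, 1.76-fold lower, a log2 ratio of -0.81 against a probe set SD of 0.21. Vsig4, the complement receptor with which Kupffer cells catch opsonised bacteria, read 524 and 304, 1.72-fold lower, or -0.78 against the same SD. Both differences exceeded 3 times that SD, and each rests on 1 probe set. Folr2, the folate receptor of resident macrophages, read 60.4 and 40.2 at a dim signal, 1.5-fold lower, or -0.59 against an SD of 0.50. Timd4, a phosphatidylserine receptor of long-lived Kupffer cells that engulf apoptotic cells, read 28.4 in the control and was below the floor at 15.8 in the other liver, at least 1.60-fold lower.

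Cd5l, a secreted scavenger receptor protein of tissue macrophages, read 487 and 403, a log2 ratio of -0.27. Cd163, which takes up hemoglobin bound to haptoglobin, read 189.9 and 158, also -0.27. These lay within 2 probe set SDs. Marco, a scavenger receptor for bacteria and particles, went the other way. It read 77.3 in the control and 136 in the Tmprss6-deficient liver, 1.76-fold higher, or 0.82 against an SD of 0.34, and its second probe set read 30.1 and 38.4, 1.28-fold higher. Spic, a transcription factor of iron-recycling macrophages, was below the floor on both arrays, at 2.9 and 8.3 on 1 probe set and 12.9 and 0.2 on another, so it has no ratio. Over the 7 measured resident genes the median log2 ratio was -0.59, with 4 lower and 1 higher by 1.5-fold or more. With the floor at the 70th percentile of all probe sets it was -0.27 over 6 genes.

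The promoters of 3 resident genes are shown because they are the resident genes with the largest differences measured on both arrays, 2 lower and 1 higher. Each is the 250 bases before the transcription start in RefSeq, assembly GRCm38.p6, written 5′ to 3′ on the gene's own strand. Capitals mark GAGGAA, the purine box bound by PU.1 and its relative SPI-C, on either strand, or AGGAAGT, a form of the same box that overlaps it by its core. Clec4f lies at chr6:83656117-83656366 (minus strand), Vsig4 at chrX:96293439-96293688 (minus strand) and Marco at chr1:120505025-120505274 (minus strand).
Clec4f: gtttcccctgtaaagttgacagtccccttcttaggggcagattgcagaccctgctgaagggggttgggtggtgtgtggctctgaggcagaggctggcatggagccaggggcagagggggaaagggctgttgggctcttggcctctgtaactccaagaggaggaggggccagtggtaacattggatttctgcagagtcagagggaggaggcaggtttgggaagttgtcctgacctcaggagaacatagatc
Vsig4: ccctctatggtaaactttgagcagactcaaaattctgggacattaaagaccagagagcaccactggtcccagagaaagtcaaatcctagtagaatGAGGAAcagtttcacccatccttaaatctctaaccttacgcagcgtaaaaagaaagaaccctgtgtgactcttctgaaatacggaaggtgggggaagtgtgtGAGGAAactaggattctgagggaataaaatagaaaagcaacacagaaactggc
Marco: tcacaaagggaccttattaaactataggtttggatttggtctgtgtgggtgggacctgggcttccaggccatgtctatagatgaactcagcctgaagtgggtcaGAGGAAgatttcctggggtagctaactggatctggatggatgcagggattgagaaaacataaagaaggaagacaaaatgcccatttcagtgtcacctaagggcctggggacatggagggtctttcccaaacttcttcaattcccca

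The Vsig4 window holds 2 GAGGAA matches and the Marco window 1, while the Clec4f window holds 0 of either motif. Of the 34 genes, 27 had a promoter in the RefSeq table. GAGGAA was found in 13 of these 27 (48.1%), against 25.9% of 27025 genes, and AGGAAGT in 6 (22.2%), against 8.80%. By group, GAGGAA was found in 3 of 8 resident genes (Vsig4, Marco and Cd5l), 10 of 16 general genes and 0 of 3 monocyte-type genes. A match is a string of letters and not a binding site, and it occurs both in genes that were lower, such as Vsig4 and Ptprc, and in Marco, which was higher.

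Among general macrophage genes, most lay slightly lower and few reached 1.5-fold. Of 21 genes, all measured, 15 had a lower signal, 5 a higher one and 1 an equal one, with a median log2 ratio of -0.27, 1 lower and 0 higher by 1.5-fold or more. Csf1r, the receptor for macrophage colony-stimulating factor, read 1174 and 883, a log2 ratio of -0.41 on its brightest probe set, with -0.34 and -0.28 on the others. Adgre1, which encodes the F4/80 antigen, read 115 and 119, and Mrc1, the mannose receptor, read 371 and 378. Both differed by less than 0.05 on the log2 scale, and scaling the arrays to their medians turned each to a ratio just below 0. Mrc1 and the Fc receptor gene Fcgr2b are also expressed by sinusoidal endothelium.

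The scavenger, lysosomal and phagosomal genes of this group were read as follows. The class A scavenger receptor gene Msr1 read 104 and 72.0, a log2 ratio of -0.53, while a dim probe set that was measured in the Tmprss6-deficient liver alone was at least 1.25-fold higher. Cd68, a lysosomal glycoprotein gene, read 48.6 and 33.6 (-0.53 against an SD of 0.50), and the lysozyme gene Lyz2 read 321 and 299.7 (-0.10). Ctss, the cathepsin that trims the invariant chain of MHC class II, read 540.3 and 447 (-0.27). The pore-forming macrophage protein gene Mpeg1 read 337 and 257 (-0.39 against an SD of 0.21). Slc11a1, the phagosomal exporter of iron and manganese, read 72.7 and 58.2 (-0.32). Cybb, the catalytic subunit of the phagocyte NADPH oxidase, read 81.1 and 54.3, a log2 ratio of -0.58 that lies just under 1.5-fold. Its second probe set gave -0.33, and another, measured in the control liver alone, was at least 2.06-fold lower.

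The 3 Fc gamma receptor genes among the members, and the signalling chain gene Fcer1g, differed by less than 0.2 on the log2 scale on their brightest sets. Fcgr3 read 69.6 on both arrays, Fcgr1, the high-affinity receptor for immunoglobulin G, read 25.8 and 26.4, and Fcer1g read 86.5 and 97.6 (0.17). Fcgr2b, the inhibitory receptor, read 383 and 400.1 on its brightest probe set (0.064) and gave -0.052, -0.26 and -0.22 on the other measured sets. Fcgr4, another Fc receptor gene that is not one of the 34, read 66.4 and 44.4, a log2 ratio of -0.58. The signs of Fcgr1, Fcgr2b and Fcgr3 are not settled, since scaling the arrays to their medians put all 3 just below 0. Tyrobp (DAP12), the adaptor of other activating myeloid receptors, read 160.2 and 117 (-0.45 against an SD of 0.34).

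Axl and Mertk, receptor kinases for the clearance of apoptotic cells, read 49.3 and 43.3 (-0.19) and 244 and 207 (-0.24). Aif1, which encodes the cytoskeletal protein IBA1, read 24.5 in the control and was below the floor at 9.9 in the other liver, at least 1.38-fold lower. Spi1, which encodes the myeloid transcription factor PU.1, read 28.7 and 26.7 (-0.10 against an SD of 0.50). Ptprc (CD45), a phosphatase of all leukocytes, read 152 and 97.5 and was 1.56-fold lower, or -0.64 against an SD of 0.34. The leukocyte lysosomal gene Laptm5 read 99.1 and 81.8 (-0.28), and its other 3 sets above the floor on both arrays gave -0.42, -0.53 and -0.66. A further Laptm5 set read 1.0 in the control and 34.2 in the Tmprss6-deficient liver, at least 1.92-fold higher, against the direction of the other 4.

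**Figure D2:**
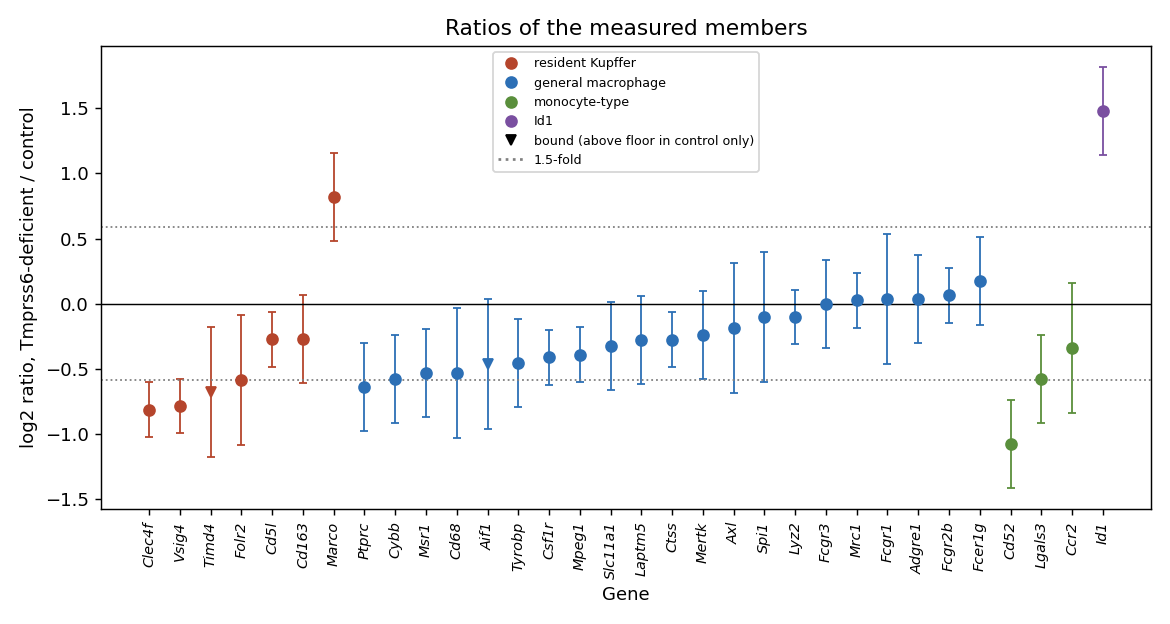
Log2 ratio of Tmprss6-deficient over control for the 32 measured genes, ordered within each group, with error bars of 1 probe set SD for the gene's signal range and dotted lines at 1.5-fold; triangles are bounds for genes above the floor in the control only. The general macrophage genes lie between -0.64 and 0.17, while Clec4f, Vsig4 and Cd52 lie more than 2 SDs below 0, and Marco and Id1 more than 2 SDs above it.

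The 3 measured genes typical of monocytes read lower in the Tmprss6-deficient liver on their brightest probe sets. Cd52, a surface glycoprotein of monocytes and lymphocytes, read 93.6 in the control and 44.5 in the Tmprss6-deficient liver. It was 2.10-fold lower, or -1.07 against an SD of 0.34, the lowest ratio of the 34 genes, on 1 probe set. Lgals3 (galectin-3), which is abundant in recruited macrophages, read 87.6 and 58.6, a log2 ratio of -0.58. Ccr2, the chemokine receptor of classical monocytes, was near the floor at 25.3 and 20.0 (-0.34), and its other measured sets read higher there, 22.5 against 19.7 and 26.3 against 8.7, which is below the floor. The mean of its 3 measured sets was 0.14, so Ccr2 has no settled direction. Cx3cr1, the fractalkine receptor, was below the floor on both arrays on both of its probe sets. Over the 3 measured genes the median log2 ratio was -0.58, and with the floor added as a pseudocount and no filter it was -0.33 over all 4.

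Id1, an inhibitor of basic helix-loop-helix factors that is induced by bone morphogenetic protein (BMP) signalling, had the largest ratio of the 34. It read 89.7 and 249.8, 2.78-fold higher, or 1.48 against an SD of 0.34. Id3, a related gene on the list of other Kupffer genes, read 136 and 297, 2.19-fold higher. Endothelial cells and hepatocytes express Id genes too, and which cells carried the transcript was not measured. Without Id1 the median log2 ratio of the remaining members was -0.32, with 24 of 31 lower.

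Among the members, resident Kupffer genes lay lower than general macrophage genes, by a difference that depends on the dim members. At 1.5-fold or more, 4 of 7 resident genes (57.1%) and 1 of 21 general genes (4.76%) were lower, against 9.19% of all measured genes. These counts depend on the cut-off. Among the 4, Timd4 has only a bound and Folr2 passed narrowly at 1.502-fold, while the general gene Cybb fell just short at 1.494-fold. The difference between the medians of the 2 groups was -0.31 on the log2 scale. It was -0.17 when only genes above the floor on both arrays were used, which leaves out Timd4 and Aif1, and 0.0052 with the floor at the 70th percentile of all probe sets, which leaves out Timd4 and Aif1 among others and gives Folr2 only as a bound. The monocyte-type median differed from the general one by -0.31. With 7, 21 and 3 measured genes and 1 array a genotype, these differences describe the 2 livers and have no test. Within the resident group the ratios ran from -0.81 for Clec4f to 0.82 for Marco. That is a wider range than in the general group, from -0.64 for Ptprc to 0.17 for Fcer1g. Genes outside the members, read below, did not keep this order of the medians. The median was 0.0093 over 15 other Kupffer genes and -0.34 over 31 other macrophage genes. Over genes measured on both arrays these medians were -0.19 and -0.25. The lower resident genes are thus described for the members only. Whether Kupffer genes in general were lower was not tested.

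Other probe sets of the same genes were used as a check. The 34 genes had 58 probe sets, of which 48 were measured, 34 of them with a lower signal and 13 with a higher one. These counts include the 32 brightest sets read above, 24 of them lower and 7 higher, so they are not a separate check. Of the 41 measured on both arrays, 31 were lower and 9 higher. More than 1 measured set was available for 8 genes. In 4 of them, Marco, Csf1r, Fcgr1 and Cybb, all measured sets shared a direction, and in the other 4, Msr1, Fcgr2b, Laptm5 and Ccr2, they did not.

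**Figure D3:**
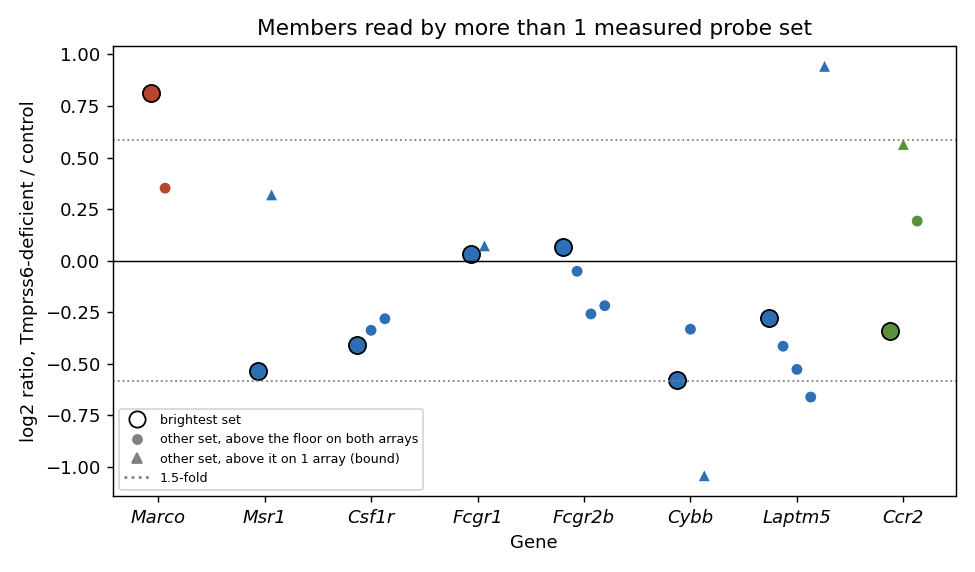
Log2 ratio of every measured probe set of the 8 genes with more than 1, with the brightest set outlined, sets measured on both arrays as circles and sets measured on 1 array, which give only a bound, as triangles. The 3 sets of Csf1r lie between -0.41 and -0.28 and the sets of Marco at 0.82 and 0.35, while Laptm5 and Ccr2 have sets on both sides of 0.

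Further myeloid genes were read from lists that hold none of the 34. Of 31 measured macrophage genes 27 had a lower signal (87.1%, against 50.4% of all measured genes). Past 1.5-fold 8 were lower (25.8%, against 9.19%) and 1 was higher (3.23%, against 8.82%), with a median log2 ratio of -0.34. The lowest was Ncf4, a cytosolic NADPH oxidase subunit, at least 2.77-fold lower (49.3 and 6.9), and the highest Ms4a7, which read 20.6 and 31.4. Of 15 monocyte genes 13 had a lower signal (86.7%), with 2 lower (13.3%) and 0 higher by 1.5-fold and a median of -0.28. The lowest there was the galectin-1 gene Lgals1, 4.25-fold lower (133 and 31.3), which mesenchymal cells also express. Measured on both arrays were 29 of the macrophage genes, with a median of -0.25, and 13 of the monocyte genes, with a median of -0.32. The others were measured in the control only, so their lower direction was fixed by the floor. Fcgr4 is counted in both lists. Of the 15 measured Kupffer genes outside the 34, 7 were lower and 8 higher, with 3 higher (20%) and 2 lower (13.3%) by 1.5-fold. Their median was 0.0093, and -0.19 over the 13 measured on both arrays, without the bounds of Cd207 and Cd209f. Their extremes were Irf7, an interferon-response factor, 2.44-fold lower (198 and 80.9), and Id3.

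Markers of other liver cells were read beside these values. Of 9 measured hepatocyte genes, 0 passed 1.5-fold, the median was -0.0070, and their summed signal was 181882 in the control and 180231 in the Tmprss6-deficient liver. Of 15 sinusoidal endothelial genes, 3 were higher and 4 lower by 1.5-fold, with a median of 0.14 and summed signals of 2700.2 and 2514. Clec4g was 1.98-fold lower and Lyve1 4.71-fold higher. Of 14 stellate cell and fibroblast genes, 4 had a lower signal and 1 was lower by 1.5-fold or more, the smooth muscle actin gene Acta2 (514 and 89.2, 5.76-fold lower), with a median of 0.13 and summed signals of 5059 and 5292. Of 5 measured bile duct genes, each measured on 1 array only, 4 had a lower signal and 2 were lower by 1.5-fold or more. These 4 were measured in the control only, so their direction was fixed by the floor and each ratio is a bound. Krt19 was at least 2.76-fold lower (49.2 and 15.1), and Sox9 was below the floor on both arrays. The summed signals of 129 and 57.7 include values under the floor. The part of these differences in the macrophage values was not tested.

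Markers of other leukocytes were dim, and many were below the floor. Of 13 T and NK cell genes named on the array 5 were measured, each on 1 array only, and the T cell receptor complex genes Cd3d, Cd3e and Cd3g were below the floor on both. Of these 5, 3 had a higher signal and 2 a lower one, each direction being fixed by the floor. At 1.5-fold or more, 2 were higher (40%, against 8.82% of all measured genes) and 0 lower. Prf1 (perforin) was at least 1.67-fold higher at 15.7 and 29.7. The summed signals of the 5, 87.3 and 95.0, include values under the floor. Of 9 B and plasma cell genes 6 were measured, with 0 past 1.5-fold and summed signals of 192 and 201. The brightest was the immunoglobulin heavy chain gene Ighm at 71.7 and 75.4. Of 11 neutrophil genes 7 were measured, with 2 higher and 1 lower by 1.5-fold, a median of -0.28 and summed signals of 217 and 188. S100a8 read 60.2 and 45.1, Csf3r read 22.0 and 40.2, 1.83-fold higher, Elane was at least 1.67-fold lower, and Mpo, Camp, Cxcr2 and Mmp8 were below the floor on both arrays. Of 9 dendritic cell genes 3 were measured, all 3 higher, with summed signals of 62.8 and 95.2 and Zbtb46 at least 1.92-fold higher, while Flt3, Xcr1 and Siglech were below the floor on both arrays. The part of these cells in the values of Ptprc, Cd52 and Laptm5, which lymphocytes and neutrophils also express, was not tested.

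**Figure D4:**
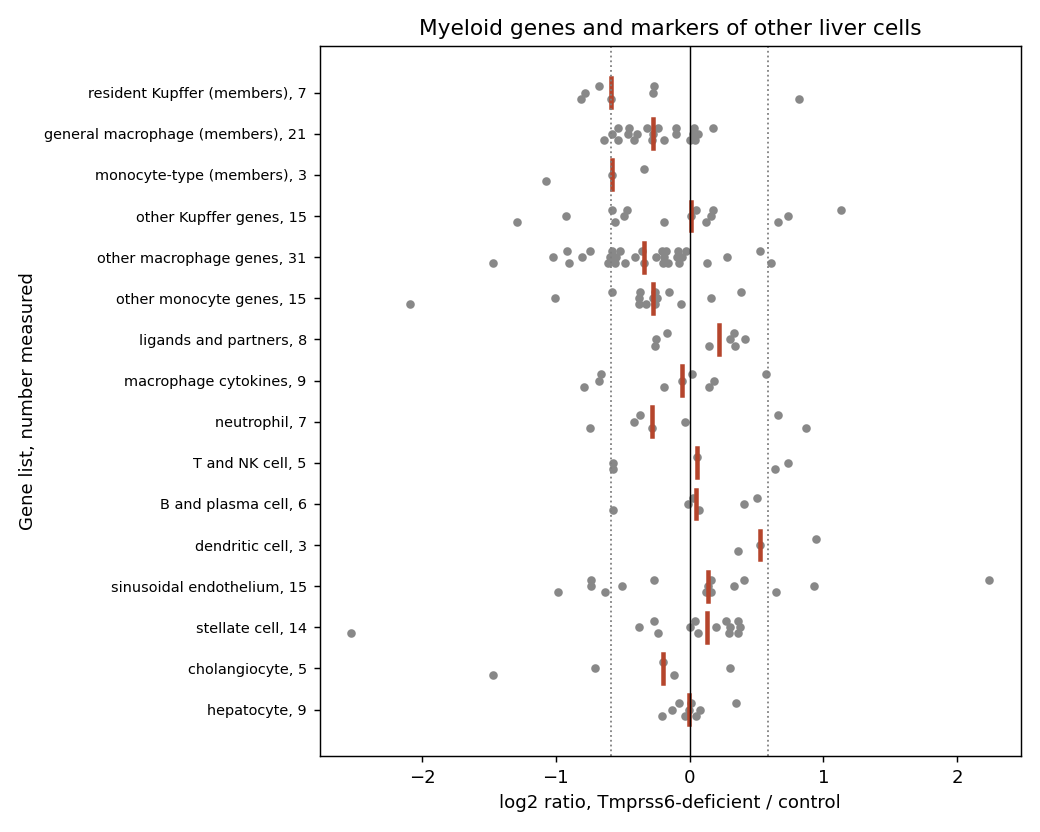
Log2 ratio of each measured gene (grey points) in the 3 member groups, other myeloid lists and markers of other liver cells, with the number measured after each name, list medians as red bars and dotted lines at 1.5-fold. The medians of the member groups and of the other macrophage, monocyte and neutrophil lists lie between -0.59 and -0.27. Those of other Kupffer genes and hepatocyte genes lie within 0.01 of 0. Over genes measured on both arrays, the median of other Kupffer genes was -0.19.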

How the data were processed

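Liver RNA from 1 control and 1 Tmprss6-deficient mouse was amplified and biotin-labelled by in vitro transcription, according to the protocols in the labels, with 1 array each. The deposited numbers are MAS5 signals, that is, the intensity of each probe set on a linear scale; the submitters' processing notes name the tool. Its version and settings are not stated in the labels, and detection calls were not used here. MAS5 summarises each array alone, so dim signals are noisy, and saturation could not be assessed.

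Of 45101 probe sets, 34958 had 1 gene symbol in the platform annotation, 932 had more than 1 and got no name, and 9211 are absent from the table used. Through gene identifiers, 34754 were found in RefSeq (GRCm38.p6), which changed 0 symbols. Arrays were scaled to the same mean without the lowest and highest 2% of probe sets, signals under the floor were raised to the floor before taking log2. A gene is its brightest probe set. A gene measured on 1 array has a bound, written "at least". The probe set SD is the SD of the difference between the 2 brightest sets of a gene, both in the signal range, divided by the square root of 2.

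The members and lists were chosen with earlier results of these data known. All 34 members are named, with Tmprss6, and for each other list its highest and lowest gene past 1.5-fold; Fcgr4, Ighm, S100a8, Cd209f, the genes of other cell types below the floor and those of the closing observations were chosen after their values were seen. Of 204 entries in 13 other lists, 23 matched no probe set by symbol. Python 3.11.15, numpy 2.4.6, pandas 2.3.3 and statsmodels 0.14.6 (loess) were used, and the code for the ratios was checked on arrays simulated with known fold changes. The alternatives were 4 scalings, 2 floors, a pseudocount, the mean of all probe sets, plain probe sets and genes on both arrays only.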

Additional observations from a re-analysis of the deposited data

How the results depend on the processing

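The median log2 ratio of all members kept its sign under all 10 alternatives, from -0.36 (scaling to the median, where that of all genes was -0.064) to -0.26. Members lower at 1.5-fold numbered 10 with scaling to the median and from 4 to 9 otherwise. The share of all measured genes lower at 1.5-fold was 11.1% with scaling to the median. Over the alternatives it ran from 6.27% with the 70th percentile floor to 15.7% with the 30th percentile floor. The counts of 4 came from settings with fewer measured members, 25 with the 70th percentile floor and 26 with plain probe sets. Members higher numbered 1 with the mean of all measured probe sets, against 7.90% of all measured genes, with Marco at 0.58. For resident genes the median was -0.27 when the floor was the 70th percentile, -0.45 with the floor as a pseudocount and no filter and -0.43 over genes measured on both arrays. The general median was -0.19 with the mean of all measured probe sets, and the monocyte-type median -0.33 with the pseudocount. The resident minus general difference was 0.0052 under the 70th percentile floor and -0.17 over genes measured on both arrays. Of 305 values of single members under an alternative, 302 stayed within 1 probe set SD. The 3 others were Msr1 with the mean of all measured sets (-0.11), Laptm5 with plain sets only (0.94) and Aif1 under the 30th percentile floor (-1.31). Many of the 305 could hardly move, so the count is no measure of stability. Unscaled arrays and the limit to genes on both arrays left ratios nearly identical. The mean of all sets can change only genes with more than 1 measured set. Ccr2 changed sign with the mean of all measured sets (0.14). The cause of these shifts was not tested. No paired analysis was possible because each group holds 1 array. Signals near the floor limit what can be said of Timd4, Aif1, Spi1, Fcgr1, Ccr2, Spic and Cx3cr1.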

Other observations

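Partners of the members, chosen after their values were seen, are given as values. Complement C1q, which Kupffer cells make from 3 chains, read 388 and 265 for C1qa and 398 and 211 for C1qb (1.89-fold lower), but 311 and 295 for C1qc, in control and Tmprss6-deficient liver. Of the NADPH oxidase subunits besides Cybb and Ncf4, the membrane partner gene Cyba read 93.1 and 53.2, 1.75-fold lower, while Ncf1 read 61.8 and 58.3 and Rac2 34.9 and 34.3. The endotoxin co-receptor gene Cd14 read 111 and 79.6. Cd207, a lectin gene related to Clec4f, was below the floor in the control at 3.7 and read 28.2 in the Tmprss6-deficient liver, at least 1.58-fold higher.

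Of 8 measured ligands and partners of the receptors 0 passed 1.5-fold, against 8.82% higher and 9.19% lower of all measured genes. The median log2 ratio was 0.22, and -0.0097 over the 6 measured on both arrays, without the bounds of Cx3cl1 and Tyro3. Csf1 and Il34, the ligands of Csf1r, read 25.2 and 27.9, and 22.8 and 19.2. Gas6 and Pros1, which link Axl and Mertk to dying cells, read 218 and 182, and 452 and 601 (0.41). The CCR2 ligand genes Ccl2, Ccl7 and Ccl12 were below the floor on both arrays. Of 18 macrophage cytokine and effector genes 9 were measured, with 3 lower and 0 higher by 1.5-fold and a median of -0.054. Il1b was at least 1.72-fold lower, Tgfb1 1.60-fold and Ccl5 1.58-fold, and Tnf, Il6, Il10 and Nos2 were below the floor on both arrays.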
